A study of Mus musculus with 8 samples.

Results

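The transcripts of 8 genes that release, move or restrain phosphate at the site of mineral formation were followed in cultured mouse bone-forming cells. These genes, Alpl, Phospho1, Smpd3, Enpp1, Ank, Slc20a1, Slc20a2 and Mgp, were chosen by symbol, with earlier results of these data known. The shares of all tested genes are therefore set beside their counts as a description. All 8 were among the 51822 symbols read. All 8 also passed the filter on low values (at least 1 RPKM in at least 2 of the 8 libraries), which left 12514 genes for testing. RPKM is the number of reads of a gene scaled to its length and to the mapped reads of its library. Enpp1 passed that filter through its day 14 libraries alone, since it was under 1 RPKM in the 4 libraries of day 7.

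RNA was sequenced on an Ion Proton from cells kept in osteogenic medium for 7 or 14 days. The medium of all 4 groups was alpha-MEM with serum, to which beta-glycerophosphate (10 mM), dexamethasone (10 nM) and ascorbic acid had been added, and it held either the vehicle DMSO (control) or 1 µM locamidazole (LAMZ), an aminoindazole derivative. Each combination of day and treatment had 2 libraries. The sample labels name the cells as MC3T3-E1, an osteoblastic line, whereas the title of the series and the sequencing methods of the paper speak of calvarial cells. The number of mapped reads, recovered from the whole-read steps of the low values, was 3770561 and 3463538 in the day 7 control libraries and 4265037 and 5209892 in the day 7 LAMZ libraries. At day 14 it was 5369852 and 4520829 in control and 5832101 and 4882210 with LAMZ. Nothing in the labels says that the 2 libraries of a group came from separate cultures, so p-values measure the spread between these libraries, which may be technical.

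Mineral in bone forms from calcium and inorganic phosphate, first inside matrix vesicles budded from osteoblasts and then along collagen. Phosphatases raise the local phosphate, and pyrophosphate, which blocks crystal growth, is made and exported by the same cells and split by alkaline phosphatase. Carriers in the plasma membrane bring phosphate into the cell, and matrix proteins such as matrix Gla protein hold mineral back.

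With LAMZ at day 7, 3 of the 8 genes were higher than in control (limma on log2(RPKM + 1), adjusted p under 0.05), while 4.35% of the tested genes were higher, and 0 of 8 were lower, while 8.49% of the tested genes were lower. At day 14, 3 of the 8 were higher (6.96% of the tested genes) and 1 was lower (16.0%). The median log2 fold change of the 8 genes was 0.05 at day 7 and 0.62 at day 14, beside -0.08 and -0.15 over the tested genes. Both phosphatases rose with LAMZ on both days, Smpd3 rose at day 7, Ank rose at day 14 and Mgp fell at day 14. The 2 phosphate carriers and Enpp1 did not pass the test on either day. Rescaling each library to the same sum of RPKM moved the median of the 8 genes to -0.14 at day 7 and 0.33 at day 14, and that over the tested genes to -0.31 and -0.43. At that scaling 3 of the 8 were higher and 1 lower at day 7 (2.49% and 26.2% of the tested genes). At day 14, 2 were higher and 2 lower (3.78% and 42.5%). Because each group had 2 libraries, an exact permutation test of a single gene cannot go below p = 0.333, and the tests rest on a spread that limma shared across genes.

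**Figure D1:**
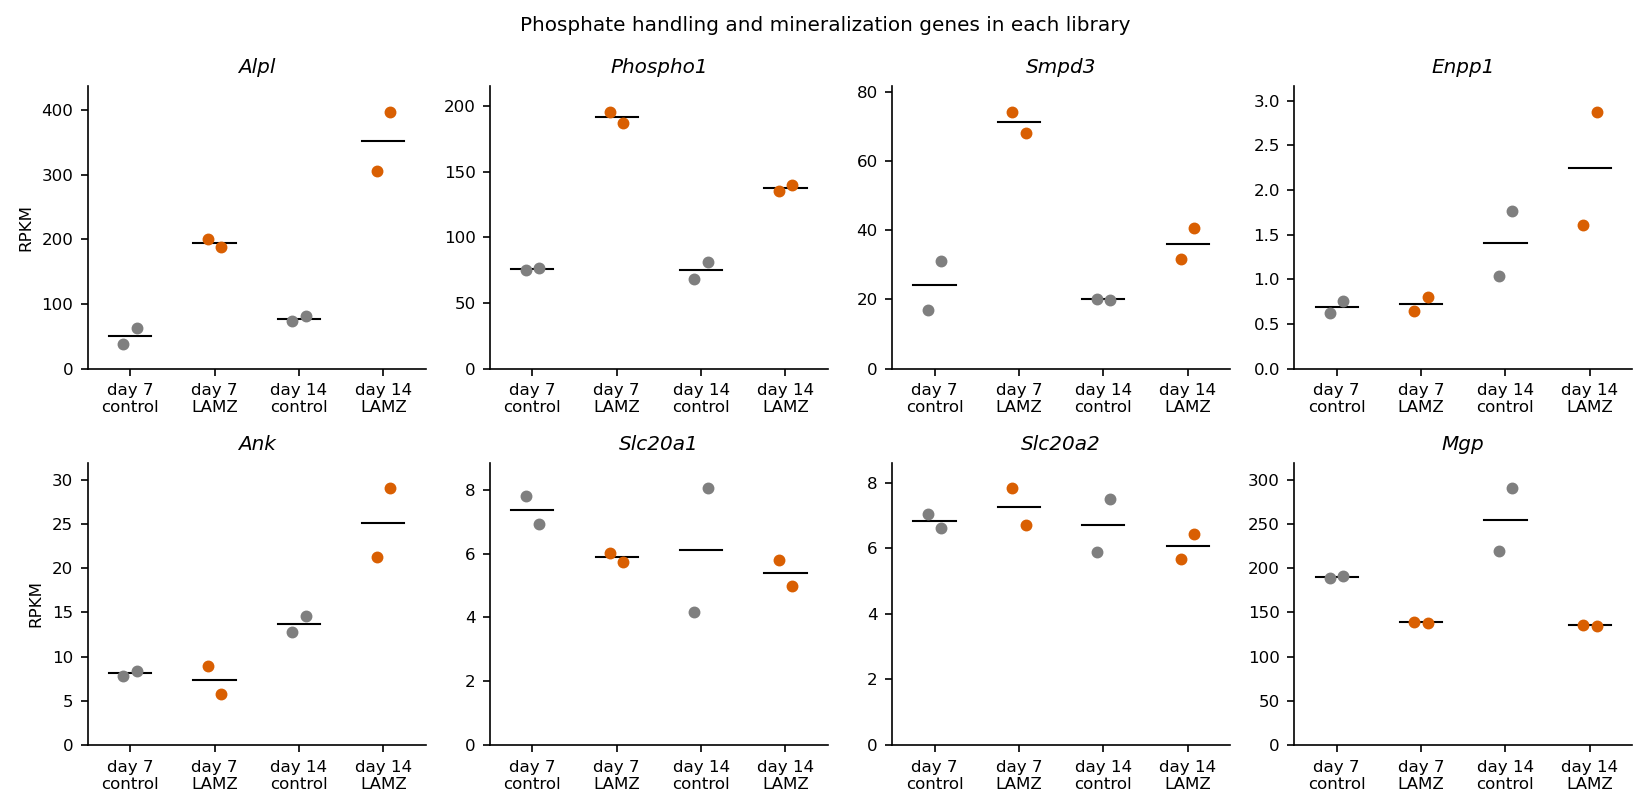
RPKM (vertical axis, from 0, its own range for each gene) of the 8 genes in each library, by day and treatment (grey control, orange LAMZ; the line is the mean of 2 libraries). Alpl reached 306 and 398 RPKM with LAMZ at day 14, while Phospho1 and Smpd3 were highest with LAMZ at day 7 (196 and 74.4 RPKM in replicate 1).

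Alpl encodes tissue-nonspecific alkaline phosphatase, which splits pyrophosphate and phosphate esters, the added beta-glycerophosphate among them. It lies on the minus strand at chr4:137741733-137796384 (GRCm38, GENCODE M21). At day 7 it was read at 37.3 and 63.4 RPKM in the control libraries and at 200.1 and 188 RPKM with LAMZ. The day 14 control libraries held 73.3 and 81.3 RPKM and those with LAMZ 306 and 398 RPKM. Each LAMZ library was above each control library of its day, and the 2 control libraries of day 7 lay further apart, relative to their level, than any other pair for this gene. The mean level was 3.85-fold higher with LAMZ at day 7 and 4.55-fold higher at day 14. On the log2(RPKM + 1) scale the rise was 1.97 at day 7 (SE 0.24, 95% interval 1.42 to 2.52, limma adjusted p = 0.00203) and 2.16 at day 14 (SE 0.24, 95% interval 1.61 to 2.71, limma adjusted p = 0.00071). This call was made in 20 of 20 alternative settings on each day.

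Phospho1 encodes a phosphatase that frees phosphate from phosphocholine and phosphoethanolamine inside matrix vesicles. It lies on the plus strand at chr11:95824499-95832140. Its control libraries were level over time, at 75.4 and 77.0 RPKM at day 7 and at 68.6 and 80.9 RPKM at day 14. With LAMZ it was read at 196 and 187 RPKM at day 7 and at 135 and 140 RPKM at day 14. Both LAMZ groups stood clear of both control groups, and the earlier LAMZ group stood above the later. The mean was 2.51-fold higher with LAMZ at day 7, a rise of 1.32 on the log2 scale (SE 0.12, 95% interval 1.04 to 1.59, limma adjusted p = 0.000547). At day 14 it was 1.84-fold higher, a rise of 0.88 (SE 0.12, 95% interval 0.60 to 1.15, limma adjusted p = 0.00185). These calls too were made in 20 of 20 alternative settings. Zfp652, on the same strand, and Abi3, on the other, overlap Phospho1 in the annotation, and reads of the overlap cannot be told apart where counting ignores strand. Zfp652 was between 3.61 and 5.80 RPKM and Abi3 between 0.661 and 4.80 RPKM in the 8 libraries.

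The promoters of these 2 genes are shown because both rose with LAMZ on both days. RefSeq entries (GRCm38.p6) were found for 5 of the 8 genes, Alpl, Phospho1, Ank, Enpp1 and Slc20a1, with 7 starts in all. Alpl has 2 starts, the first at the beginning of the gene and the second inside it. The 250 bases before each start were searched on both strands for the RUNX core TGTGGT, the GC box GGGCGG and the TATA box TATAAA, and capitals mark every match. Neighbouring GC box matches share bases in the first Alpl window and in the Phospho1 window.
Alpl, first start, chr4:137796385-137796634, minus strand: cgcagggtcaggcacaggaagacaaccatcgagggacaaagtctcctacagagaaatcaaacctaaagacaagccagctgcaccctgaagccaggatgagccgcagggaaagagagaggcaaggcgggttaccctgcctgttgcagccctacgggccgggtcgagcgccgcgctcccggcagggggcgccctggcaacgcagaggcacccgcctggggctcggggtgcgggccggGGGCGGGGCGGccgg
Alpl, second start, chr4:137766476-137766725, minus strand: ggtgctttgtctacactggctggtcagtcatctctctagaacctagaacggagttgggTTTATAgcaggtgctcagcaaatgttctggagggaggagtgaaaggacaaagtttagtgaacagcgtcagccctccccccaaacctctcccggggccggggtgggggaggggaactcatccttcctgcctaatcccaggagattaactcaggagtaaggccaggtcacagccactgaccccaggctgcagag
Phospho1, chr11:95824250-95824499, plus strand: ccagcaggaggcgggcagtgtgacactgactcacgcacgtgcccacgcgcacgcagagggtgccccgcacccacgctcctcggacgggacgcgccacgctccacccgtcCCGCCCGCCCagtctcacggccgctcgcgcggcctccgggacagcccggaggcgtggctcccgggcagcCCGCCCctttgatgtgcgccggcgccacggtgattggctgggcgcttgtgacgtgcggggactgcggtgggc
The first Alpl window held 2 GC box matches within 15 bases of the start, and the Phospho1 window held 3. The windows of the other genes held GC box matches too, 2 in Ank, 1 in Enpp1, and 2 and 1 at the starts of Slc20a1. The second Alpl window held 0. The second Alpl window held 1 TATA box match, 192 bases before the start. None of the 3 windows held TGTGGT, whereas the Enpp1 window and the window of the first Slc20a1 start held 1 match each. Of 32851 windows of the same length, 14.0% held TGTGGT, 32.7% held GGGCGG and 12.4% held TATAAA. These letters describe the windows and were not tested against the levels.

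Smpd3 encodes neutral sphingomyelinase 2, which cuts sphingomyelin of the membrane into ceramide and phosphocholine, a substrate of the phosphatase above. It lies on the minus strand at chr8:106252548-106337988. At day 7 it was read at 17.0 and 31.1 RPKM in control and at 74.4 and 68.3 RPKM with LAMZ. By day 14 it was read at 20.1 and 19.96 RPKM in control and at 31.6 and 40.8 RPKM with LAMZ. The LAMZ libraries were above the control libraries of their day, with a narrower gap at day 14, where LAMZ replicate 1 came close to the higher control library of day 7. The mean was 2.97-fold higher at day 7, a rise of 1.59 on the log2 scale (SE 0.25, 95% interval 1.01 to 2.17, limma adjusted p = 0.00627). Without day 7 LAMZ replicate 1 that call was lost (adjusted p = 0.0575), as it was with the 4 libraries of day 7 fitted alone (adjusted p = 0.0576). At day 14 the log2 fold change was 0.81 (SE 0.25, 95% interval 0.24 to 1.39), and it did not pass (limma adjusted p = 0.051). It was called in 7 of 20 alternative settings, among them median centring (1.00, adjusted p = 0.0319) and the fits without day 7 control replicate 1 (adjusted p = 0.00776) or without day 7 control replicate 2 (adjusted p = 0.00789). Prmt7 overlaps Smpd3 on the other strand, between 4.04 and 7.68 RPKM, and 2 noncoding genes overlap it at 2.10 RPKM or less.

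Enpp1 encodes the ectoenzyme that makes pyrophosphate from extracellular ATP. It lies on the minus strand at chr10:24637914-24712159 and was the lowest of the 8 genes per length. At day 7 it was read at 0.621 and 0.760 RPKM in control and at 0.640 and 0.805 RPKM with LAMZ, which stood for 24, 27, 28 and 43 reads. At day 14 it was read at 1.03 and 1.77 RPKM in control and at 1.60 and 2.88 RPKM with LAMZ, or 57, 82, 96 and 144 reads. The treatments overlapped on both days, while every library of day 14 was above every library of day 7. The LAMZ difference was 0.03 on the log2 scale at day 7 (95% interval -0.54 to 0.59), where its sign turned with the scaling, to -0.10 with all libraries at the same sum, and 0.42 at day 14 (95% interval -0.14 to 0.99, limma adjusted p = 0.255). The fold change of so low a gene is understated on this scale.

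Ank encodes a membrane protein needed for the export of pyrophosphate and ATP from the cell. It lies on the plus strand at chr15:27466677-27594909. At day 7 it was read at 7.87 and 8.40 RPKM in control and at 8.90 and 5.75 RPKM with LAMZ. The values of day 14 were 12.8 and 14.7 RPKM in control and 21.3 and 29.1 RPKM with LAMZ. The treatments overlapped at day 7 and were apart at day 14, where all 4 libraries were above those of day 7. At day 14 the mean was 1.83-fold higher with LAMZ, a rise of 0.82 on the log2 scale (SE 0.21, 95% interval 0.33 to 1.30, limma adjusted p = 0.0265). This call was lost without day 14 control replicate 1 (adjusted p = 0.121), without day 14 control replicate 2 (adjusted p = 0.0767), and without day 14 LAMZ replicate 2 (adjusted p = 0.157). It was also lost with no filter (adjusted p = 0.0754) and with libraries at the same sum of RPKM, with Rn7s1 (0.47, adjusted p = 0.106) or without it (0.58, adjusted p = 0.0934). At day 7 the difference was -0.16 (95% interval -0.64 to 0.32, limma adjusted p = 0.673), and it was 0.12 without day 7 LAMZ replicate 2. Otulin overlaps Ank on the other strand, between 6.90 and 9.35 RPKM.

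Slc20a1 and Slc20a2 encode the sodium-phosphate cotransporters PiT-1 and PiT-2. They lie on the plus strand at chr2:129198764-129211616 and at chr8:22476788-22569612. Slc20a1 was read at 7.79 and 6.93 RPKM in the day 7 control libraries and at 6.01 and 5.74 RPKM with LAMZ. At day 14 it was read at 4.17 and 8.05 RPKM in control, the lowest and the highest of its 8 values, and at 5.81 and 4.99 RPKM with LAMZ. Slc20a2 stayed between 5.68 and 7.83 RPKM in the 8 libraries. The LAMZ difference of Slc20a1 was -0.28 at day 7 (95% interval -0.83 to 0.26, limma adjusted p = 0.49) and -0.10 at day 14 (95% interval -0.64 to 0.45, limma adjusted p = 0.796). That of Slc20a2 was 0.08 (95% interval -0.26 to 0.41) and -0.12 (95% interval -0.45 to 0.21). Apart from that of Slc20a1 at day 7, these signs turned in some scalings, for example to 0.09 for Slc20a1 and 0.07 for Slc20a2 at day 14 with libraries centred on their median. With libraries at the same sum of RPKM, Slc20a2 was called lower at day 14 (-0.44, adjusted p = 0.0482), the only call of either carrier between treatments in 20 alternative settings. Smim19 overlaps Slc20a2 on the other strand, between 3.56 and 6.20 RPKM, and the deposited values of Slc20a2 fit a length of 3921 bases, shorter than its 6216 bases of exon in GENCODE M21.

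Mgp encodes matrix Gla protein, an inhibitor of mineral in cartilage and vessel walls that works after vitamin K-dependent carboxylation. It lies on the minus strand at chr6:136872435-136875823. At day 7 it was read at 189 and 191 RPKM in control and at 139 and 138 RPKM with LAMZ. By day 14 it was read at 219 and 291 RPKM in control and at 136 and 135 RPKM with LAMZ. The 4 LAMZ libraries lay within 5 RPKM of each other and below the 4 control libraries. At day 14 Mgp fell by 0.89 on the log2 scale (SE 0.15, 95% interval -1.23 to -0.56, limma adjusted p = 0.00404), and this was called in 20 of 20 alternative settings. At day 7 the log2 fold change was -0.45 (SE 0.15, 95% interval -0.79 to -0.12), which did not pass (limma adjusted p = 0.082). It passed in 6 of 20 alternative settings, among them the same sum of RPKM with Rn7s1 (-0.76, adjusted p = 0.0116) or without it (-0.66, adjusted p = 0.0285), quantile normalization (-0.73, adjusted p = 0.00864) and those that left out day 14 control replicate 1 (adjusted p = 0.0399) or day 14 control replicate 2 (adjusted p = 0.0401).

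From day 7 to day 14 in control cells, 0 of the 8 genes were called higher, against 2.46% of the tested genes, and 0 were called lower, against 2.40%. At an unadjusted p under 0.05 limma listed 3 of the 8, Alpl, Ank and Mgp, beside 2727 of the 12514 tested genes. An alternative chosen after seeing the data, limma-voom on recovered reads, called Alpl and Ank, 2 of the 8, beside 1110 of 12512 genes. The log2 fold changes by limma were 0.66 for Alpl (limma adjusted p = 0.16), 0.69 for Ank (limma adjusted p = 0.106) and 0.41 for Mgp (limma adjusted p = 0.154). Without day 7 control replicate 2, Alpl was called in this comparison, at 1.03 (adjusted p = 0.0377). At the same sum of RPKM, Ank (0.93, adjusted p = 0.0376) and Mgp (0.66, adjusted p = 0.0403) were called, and Mgp was also called after quantile normalization (0.51, adjusted p = 0.0485). The day 14 control libraries of these 3 genes, and of Enpp1, were above their day 7 control libraries. The share of all tested genes that separate in this way was not computed, so nothing is read from it.

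In LAMZ cells, 2 of the 8 genes were higher at day 14 than at day 7 (5.10% of the tested genes) and 2 were lower (9.26%). Ank rose by 1.66 on the log2 scale (SE 0.21, 95% interval 1.18 to 2.15, limma adjusted p = 0.00288) and Enpp1 by 0.89 (SE 0.24, 95% interval 0.32 to 1.45, limma adjusted p = 0.0489). Enpp1 had entered the test through the day 14 libraries, where it was higher, and with no filter it was not called (adjusted p = 0.145). Phospho1 fell by 0.47 (SE 0.12, limma adjusted p = 0.036) and Smpd3 fell by 0.97 (SE 0.25, limma adjusted p = 0.0394). Alpl was at 0.84 (SE 0.24, limma adjusted p = 0.0523), and it was called without day 7 control replicate 1 (adjusted p = 0.0132) or day 7 control replicate 2 (adjusted p = 0.0134), where Enpp1 was not (adjusted p = 0.0575 and 0.0583). Alpl was also called after median centring (adjusted p = 0.0433) and at the same sum of RPKM (adjusted p = 0.0369), and Enpp1 was not at the same sum without Rn7s1 (adjusted p = 0.0627). Ank was called in 20 of 20 alternative settings, Phospho1 in 9 of 20, Smpd3 in 8 of 20 and Enpp1 in 7 of 19. Phospho1 and Smpd3 were not called under any of the 4 scalings tried, for example at the same sum of RPKM (-0.27, adjusted p = 0.238, and -0.77, adjusted p = 0.108). The count of 4 genes was 1 without day 7 LAMZ replicate 1, day 7 LAMZ replicate 2, day 14 LAMZ replicate 1 or day 14 LAMZ replicate 2, and 2 without day 14 control replicate 1 or day 14 control replicate 2. The comparisons over time and those of treatment share libraries, so their values are set side by side only.

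**Figure D2:**
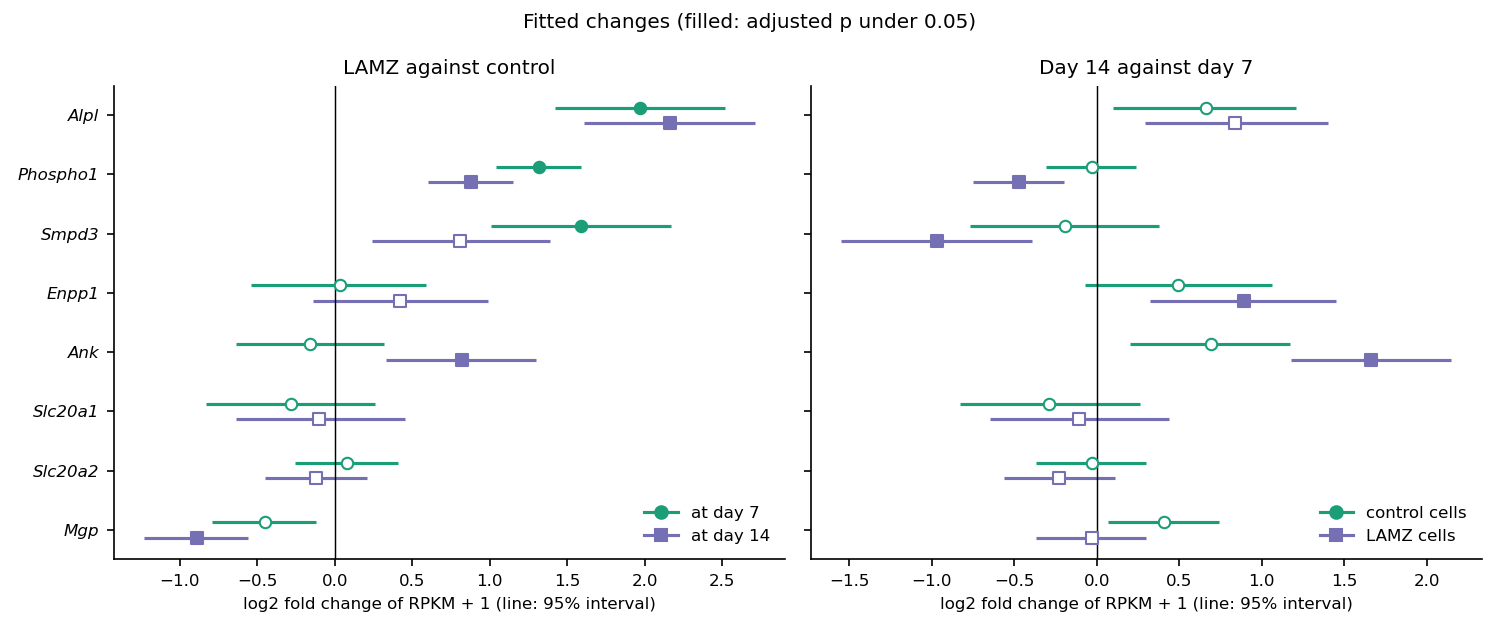
Log2 fold change of RPKM + 1 (horizontal axis) of the 8 genes with its 95% interval, for LAMZ against control (left, day 7 and day 14) and for day 14 against day 7 (right, control and LAMZ cells). Filled symbols passed an adjusted p of 0.05. On the left these are Alpl and Phospho1 on both days, Smpd3 at day 7, and Ank and Mgp at day 14, and on the right, in LAMZ cells, Ank (1.66), Enpp1, Phospho1 and Smpd3.

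Whether the LAMZ effect differed between the days was tested as the day 14 effect minus the day 7 effect. By limma 0 of the 8 genes were called, against 0.623% of the tested genes. At an unadjusted p under 0.05 there were 2 of 8, beside 2061 of the 12514 tested genes. By limma-voom on recovered reads 1 of 8 was called, beside 411 of 12512 genes. The difference was 0.98 for Ank (95% interval 0.29 to 1.66, limma adjusted p = 0.172) and -0.44 for Phospho1 (95% interval -0.83 to -0.05, limma adjusted p = 0.255). It was -0.77 for Smpd3 (limma adjusted p = 0.324), -0.44 for Mgp (limma adjusted p = 0.331) and 0.19 for Alpl (limma adjusted p = 0.826). Over 19 alternative settings it lay between -1.19 and -0.36 for Smpd3 and between -0.64 and -0.24 for Mgp. The limma-voom call was Ank, at 1.06 (adjusted p = 0.0489). The spread between libraries leaves intervals of these differences that are wide beside the effects themselves.

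Ratios of 2 genes within a library do not depend on how the libraries are scaled to each other. The ratio of Alpl to Ank was 4.74 and 7.55 in the day 7 control libraries and 22.5 and 32.7 with LAMZ, and it was 5.72 and 5.55 in control and 14.4 and 13.7 with LAMZ at day 14. The LAMZ libraries were above the control libraries on both days, and those of day 7 above those of day 14. The ratio of Alpl to Enpp1 was 60.1 and 83.5 in control and 313 and 234 with LAMZ at day 7, and 70.8 and 46.0 in control and 191 and 138 with LAMZ at day 14. Here too the LAMZ libraries were higher on both days. The ratio of Alpl to Mgp rose from 0.197 and 0.332 in control to 1.43 and 1.36 with LAMZ at day 7, and from 0.334 and 0.280 to 2.25 and 2.95 at day 14, so that Alpl was read below Mgp per length in each control library and above it in each LAMZ library. The ratio of Slc20a1 to Slc20a2 lay between 0.708 and 1.11 in the 8 libraries, with the LAMZ libraries of day 7 (0.767 and 0.857) below their controls (1.11 and 1.05) and an overlap at day 14. These ratios were not tested.

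**Figure D3:**
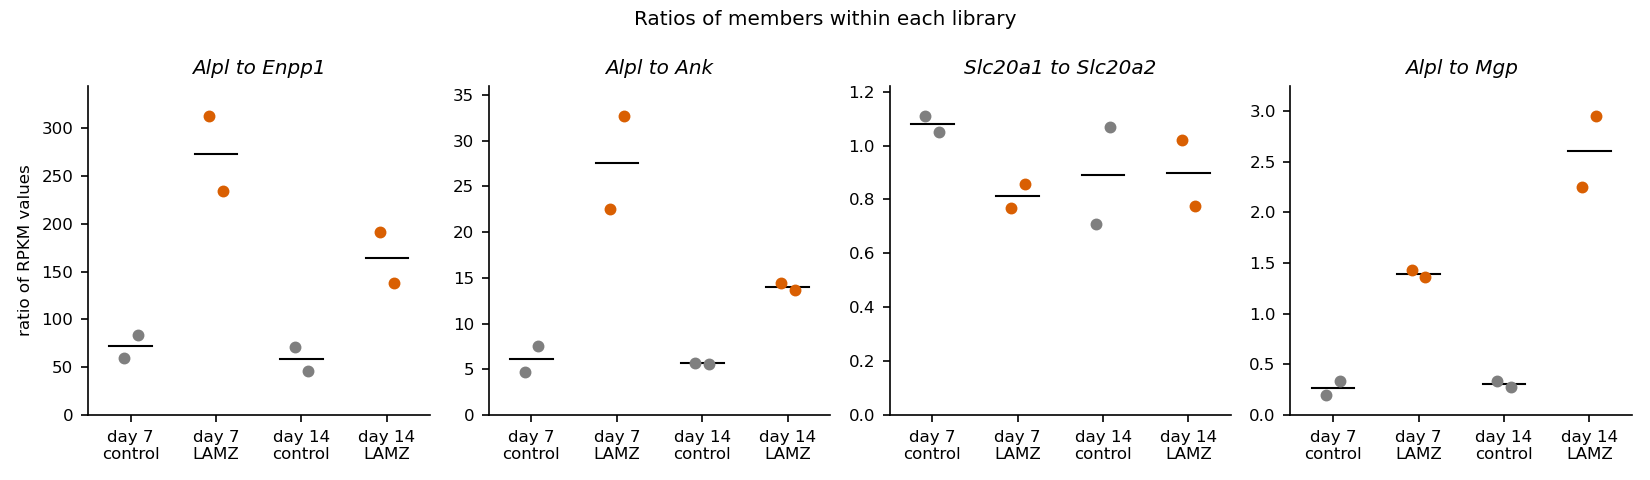
Ratio of the RPKM values of 2 genes in each library (vertical axis, from 0), by day and treatment (grey control, orange LAMZ; the line is the mean of 2 libraries). Alpl to Mgp was 0.334 or less in the control libraries and 1.36 or more with LAMZ, whereas Slc20a1 to Slc20a2 lay between 0.708 and 1.11.

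Among 5603 tested genes with a mean of at least 5 RPKM, those whose log2(RPKM + 1) was most like that of each gene over the 8 libraries were listed by Pearson r, as a description, since libraries of a group share their treatment and day. For Alpl they were Spp1 (r = 0.992), which encodes osteopontin, a substrate of alkaline phosphatase, then Gprc5c (0.992) and Cd109 (0.990). For Phospho1 they were Wisp1 (0.990), Spock2 (0.989) and Mme (0.989), and for Smpd3 Tcf7 (0.989), Rab11fip4 (0.983) and Slc16a3 (0.982). For Mgp they were Rab31 (0.992), Wnk1 (0.983) and Renbp (0.977). For Ank they were Nfe2l2 (0.985), Aurkaip1 (0.978) and Ctsa (0.978), and for Enpp1, compared with 5604 genes, Fgfr1 (0.969), Atxn2l (0.969) and Ndufa7 (0.963). The carriers had the weakest leading matches, Prpf6 (0.945) for Slc20a1 and Stx4a (0.921) for Slc20a2.

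Of 44 further genes of phosphate and mineral handling in 7 lists, 33 were tested. With LAMZ 8 were higher and 3 lower at day 7, and 9 were higher and 6 lower at day 14, with a median log2 fold change of -0.10 on each day. Over all tested genes 4.35% were higher and 8.49% lower at day 7, and 6.96% and 16.0% at day 14. Of the 8 regulators of phosphate and of matrix mineral (Phex, Fgf23, Galnt3, Kl, Fam20a, Fam20c, Mepe, Dmp1), 6 were tested, of which 4 rose at day 7 and 6 at day 14, with medians of 0.72 and 1.55. At the same sum of RPKM 2 rose and 1 fell at day 7 and 5 rose at day 14, beside 2.49% higher and 26.2% lower and 3.78% higher among the tested genes. Dmp1, an acidic matrix protein of osteocytes, was read at 5.57 and 8.25 RPKM in control and at 85.5 and 86.2 RPKM with LAMZ at day 7, a rise of 3.48 on the log2 scale (limma adjusted p = 5.49e-05), and it rose by 2.92 at day 14 (limma adjusted p = 4e-05). Mepe, another matrix protein of osteocytes, rose by 2.37 at day 14 (limma adjusted p = 0.000885), from 0.443 and 0.526 RPKM in control to 4.79 and 9.13 RPKM. It was under 1 RPKM in the 4 control libraries and so entered the test through LAMZ libraries, where it was higher, and with no filter its adjusted p was 0.00588. Galnt3, a glycosyltransferase that protects FGF23 from cleavage, rose by 1.33 and 1.78 (limma adjusted p = 0.00394 and 0.00054), and Phex, an endopeptidase of osteocytes, rose by 1.31 at day 14 (limma adjusted p = 0.00121).

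Of the 9 alkaline phosphatase copies and nucleotide or pyrophosphate hydrolases, 5 were tested, and the other alkaline phosphatases Alppl2, Alpi and Akp3 were at 0.163 RPKM or less in every library. In this list Nt5e, which turns AMP into adenosine and phosphate, rose on both days, by 1.13 and 0.87 (limma adjusted p = 0.00457 and 0.00771), while Entpd1, which removes phosphate from ATP and ADP, fell by 1.16 at day 14 (limma adjusted p = 0.0124) and Entpd2, of the same family, fell by 0.95 (limma adjusted p = 0.0058). Entpd1 had met the filter through control libraries, where it was higher, and with no filter its adjusted p was 0.046. Of the 5 other phosphate carriers 2 were tested and neither passed on either day, Xpr1, a phosphate exporter, at 0.02 and -0.14 and the mitochondrial carrier Slc25a3 at -0.12 and 0.11, with signs that turned under some scalings except for Slc25a3 at day 7, which was called lower at the same sum of RPKM (-0.41, adjusted p = 0.0414). Of 10 sphingomyelin and choline genes, Sgms2 and Slc44a1 rose at day 7, and Enpp6 rose and Pcyt1a fell at day 14. Slc44a1, a choline carrier (0.53, limma adjusted p = 0.0357), and Enpp6, a choline phosphodiesterase (0.78, limma adjusted p = 0.0278), were not called at the same sum of RPKM (adjusted p = 0.239 and 0.0755), where 4 of the 10 were lower at day 7 and 6 at day 14, beside 26.2% and 42.5% of the tested genes. Pcyt1a, which makes CDP-choline (-0.62, limma adjusted p = 0.0195), was not called with libraries centred on their median (adjusted p = 0.0699). Sgms2, a sphingomyelin synthase of the plasma membrane, was read at 13.8 and 23.8 RPKM in control and at 62.9 and 56.9 RPKM with LAMZ at day 7, a rise of 1.67 (limma adjusted p = 0.00305), and at 21.6 and 23.9 RPKM in control and 17.4 and 19.5 RPKM with LAMZ at day 14, where it did not pass (limma adjusted p = 0.387). The level of Smpd3 with LAMZ also went down between the days (limma adjusted p = 0.0394). That fall was not called under any of the 4 scalings tried.

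Of the 3 genes of ATP release, 2 were tested and they moved apart. Beside the counts given here, 4.35% of all tested genes were higher and 8.49% lower at day 7. At day 14 these shares were 6.96% and 16.0%. Panx3, a pannexin of osteoblasts and chondrocytes, rose by 1.46 at day 7 (limma adjusted p = 0.00756) and 1.09 at day 14 (limma adjusted p = 0.0148), the latter not called at the same sum without Rn7s1 (adjusted p = 0.0527). Panx1 fell by 0.70 (limma adjusted p = 0.0257) and 1.04 (limma adjusted p = 0.00292), the former not called after median centring (adjusted p = 0.0536), after quantile normalization (adjusted p = 0.0606) or with no filter (adjusted p = 0.0793). It too had met the filter through control libraries, where it was higher. Of the 4 annexins, calcium-binding proteins found in matrix vesicles, 1 fell on each day, Anxa1, which fell by 1.18 (limma adjusted p = 0.00414) and 1.01 (limma adjusted p = 0.00437), and at the same sum of RPKM 4 of 4 were lower on both days, when 26.2% and 42.5% of the tested genes were. Of the 5 genes of the vitamin K cycle and other inhibitors, 4 were tested and 1 fell on each day. This was Gas6, a Gla protein like Mgp, which fell by 1.02 (limma adjusted p = 0.00236) and 1.95 (limma adjusted p = 6.4e-05). Ggcx, the carboxylase that both Gla proteins need, was at 0.00 and -0.10, with a sign that turned under some scalings (0.09 at day 14 after median centring).

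**Figure D4:**
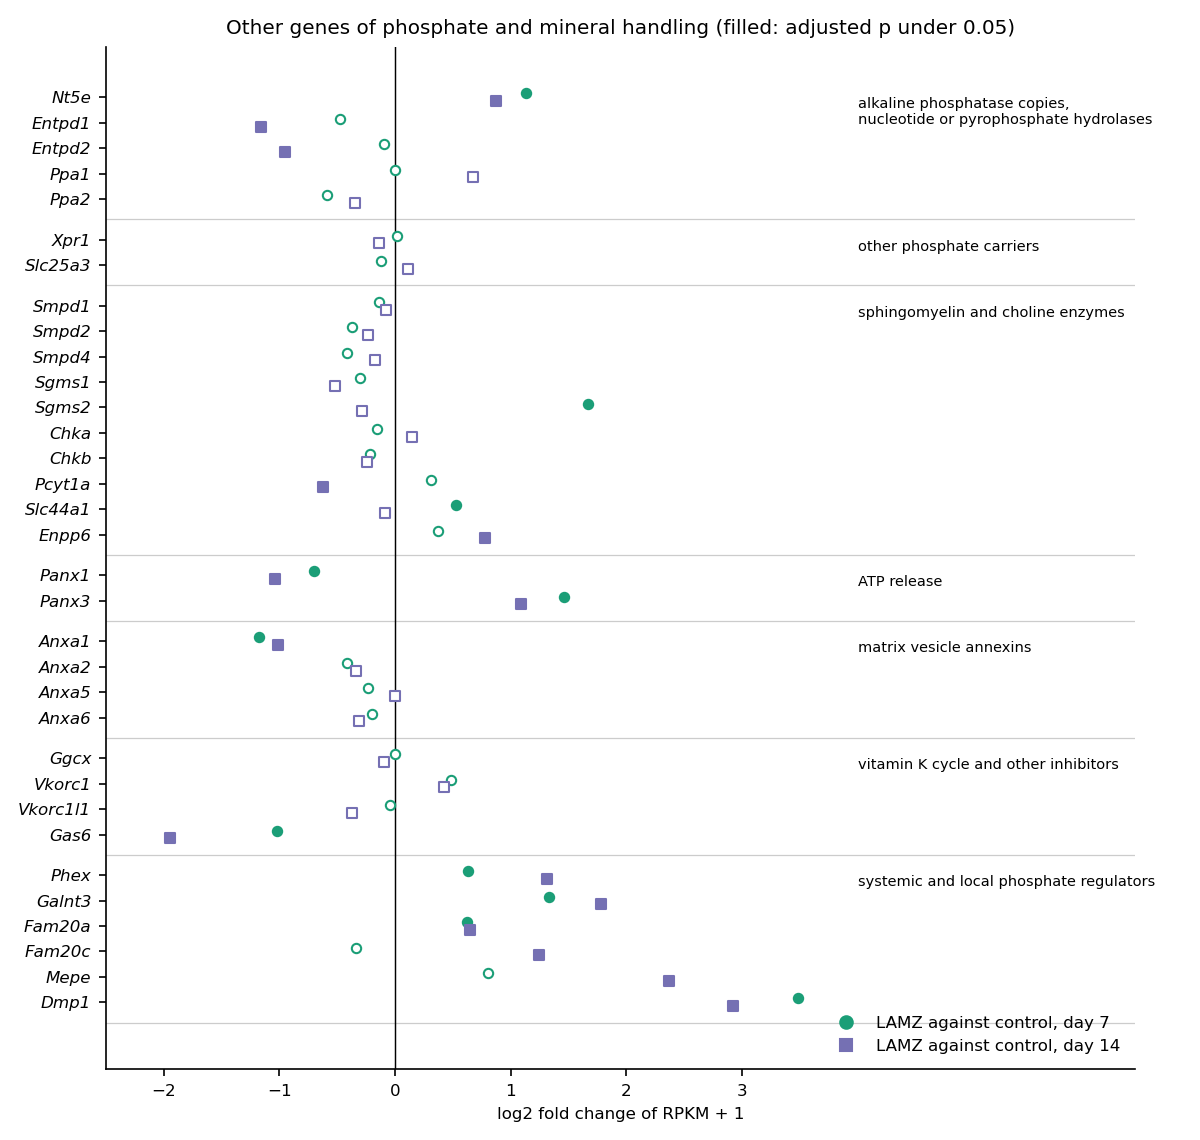
Log2 fold change of RPKM + 1 with LAMZ (horizontal axis) of the 33 tested genes of the 7 lists at day 7 (circles) and day 14 (squares), filled where the adjusted p was under 0.05. Dmp1 lies furthest right, at 3.48 and 2.92, and Gas6 at day 14 furthest left, at -1.95.

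The labelled cell type was checked against its markers. Beside the counts of markers called with LAMZ, 4.35% of all tested genes were higher and 8.49% lower at day 7. At day 14 these shares were 6.96% and 16.0%. The share higher at day 14 was 3.78% at the same sum of RPKM and 12.8% after median centring. All 10 osteoblast markers were above 0 in each library, and their summed level was 9575 and 10916 RPKM in control and 12243 and 11986 RPKM with LAMZ at day 7, and 13622 and 13262 RPKM in control and 17941 and 19635 RPKM with LAMZ at day 14, with Col1a1 as the most abundant gene. With LAMZ 5 of 10 rose on each day, and at day 14 this was 3 at the same sum of RPKM or with no filter, 7 after median centring and 2 to 5 with a library left out. Col1a1 itself (0.55, limma adjusted p = 0.046) was at -0.22 after quantile normalization and was not called with no filter (adjusted p = 0.649). Genes of macrophages were read in the control libraries, where 15 of 15 were above 0, with a summed level of 476 and 625 RPKM at day 7 and 1191 and 1210 RPKM at day 14. With LAMZ the sum was 9.28 and 7.59 RPKM at day 7 and 7.30 and 8.08 RPKM at day 14, and C1qa, C1qb, C1qc, Tyrobp, Ctss and Laptm5 were listed at 0 in the 4 LAMZ libraries. Lyz2 was the most abundant gene of this list, at 312 and 409 RPKM in the day 7 control libraries. Of the 15 genes, 13 fell at day 7 and 14 at day 14. All but Lyz2 met the filter through control libraries, where they were higher. With no filter 12 and 14 fell, without Cd14 at day 7 (adjusted p = 0.0897), and with a library left out 11 to 14 and 13 to 14 fell. In bulk samples fewer cells of a type and less RNA per cell cannot be told apart. The macrophage genes differed between the same groups as the 5 genes called with LAMZ, and their part in the result was not tested.

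Some of the other lists also differed. Beside their counts, 4.35% of all tested genes were higher and 8.49% lower at day 7. At day 14 these shares were 6.96% and 16.0%. A count of 1 gene in lists this short is not read as a change of the list. The adipocyte genes summed to 28.5 and 21.7 RPKM in control and 6.74 and 5.86 RPKM with LAMZ at day 7, and to 47.2 and 111 RPKM in control and 8.23 and 8.91 RPKM with LAMZ at day 14. Lpl was the most abundant of them in 7 libraries and Fabp4, at 41.2 RPKM, in day 14 control replicate 2, and of the 5 tested 1 fell at day 7 and 3 at day 14. Adipoq and Fabp4, among the latter, had entered the test through control libraries only, and at day 14 Adipoq was not called with no filter (adjusted p = 0.0648), and 1 to 4 fell with a library left out. The chondrocyte genes, led by Col2a1, summed to 255 and 179 RPKM in control and 453 and 474 RPKM with LAMZ at day 7, and to 158 and 171 RPKM in control and 449 and 513 RPKM with LAMZ at day 14. Of these 8 genes 4 rose at day 7, and 6 rose and 1 fell at day 14, or 3 to 4, 5 to 6 and 0 to 1 with a library left out. Matn3, higher on both days, entered the test through LAMZ libraries only (adjusted p = 0.00961 and 0.0152 with no filter). At day 14 the call of Chad was lost at the same sum of RPKM (adjusted p = 0.0987) and with no filter (adjusted p = 0.0977). That of Sox9, the 1 that fell, was lost after median centring (adjusted p = 0.07), quantile normalization (adjusted p = 0.0672) and with no filter (adjusted p = 0.0609). The smooth muscle and pericyte genes, led by Acta2, summed to 1196 and 998 RPKM in control and 1266 and 1581 RPKM with LAMZ at day 7, and to 897 and 1085 RPKM in control and 2007 and 1866 RPKM with LAMZ at day 14, where the 4 tested of 5 genes rose, against 1 at day 7. At day 14 Tagln was not called at the same sum of RPKM (adjusted p = 0.0883) or after quantile normalization (adjusted p = 0.104), nor Acta2 with no filter (adjusted p = 0.0515), and 2 to 4 rose with a library left out. At day 7 Acta2 was called after median centring (0.60, adjusted p = 0.0474), and Tagln was called lower at the same sum (-0.46, adjusted p = 0.0476). Rgs5, the untested gene of this list, was under 1 RPKM in each library. It was read at 0.233 and 0.318 RPKM in control and 0.877 and 0.676 RPKM with LAMZ at day 7. By day 14 it was at 0.983 and 0.535 RPKM in control and lower with LAMZ, at 0.377 and 0.0451 RPKM. The osteoclast genes lay between 89.8 and 127 RPKM, nearly all of it Ctsk. Of the 7, 3 were tested, of which 1 rose, Mmp9 at day 14 (1.48, limma adjusted p = 0.0075). Atp6v0d2, which was not tested, went the other way at day 14. It was read at 1.03 and 0.896 RPKM in control and at 0.126 and 0.0754 RPKM with LAMZ. The other untested genes, Calcr, Ocstamp and Dcstamp, were at 0.1923 RPKM or less in each library. The endothelial genes summed to 2.87 RPKM or less, with Tek the most abundant in the control libraries. Only Tek was tested, having passed the filter through control libraries (1.86 RPKM or less, beside 0.348 RPKM or less with LAMZ). It was called lower on both days (-1.14 and -0.91), also with no filter (limma adjusted p = 0.0374 and 0.0453). These calls were lost with some libraries left out, and no change is claimed for Tek. The part of these lists in the levels of the phosphate genes was not tested.

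**Figure D5:**
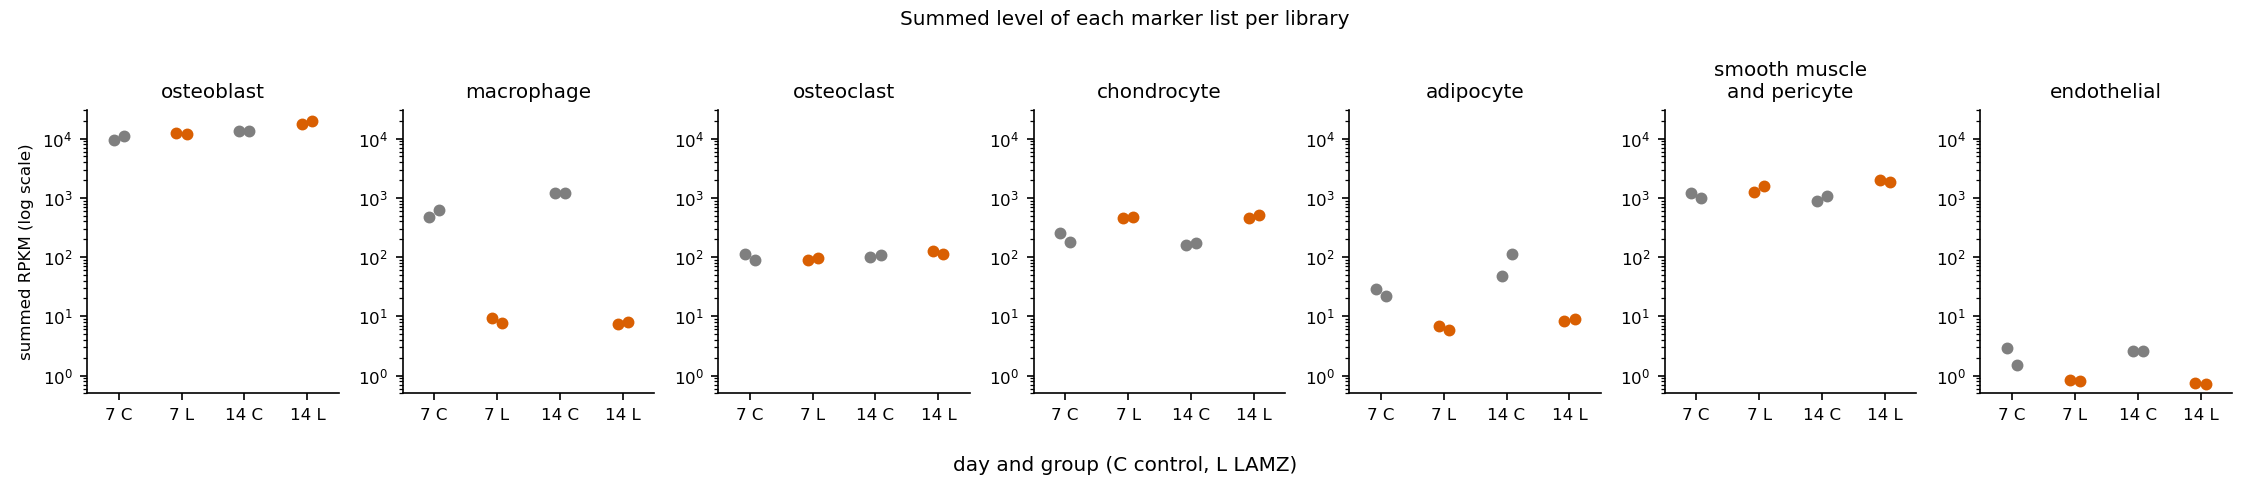
Summed RPKM of each marker list (vertical axis, log scale) in each library, by day (7 or 14) and treatment (C control in grey, L LAMZ in orange). The macrophage list lies between 476 and 1210 RPKM in control and under 10 RPKM with LAMZ, while the osteoblast list lies at 9575 RPKM or more in each library.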

How the data were processed

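RNA of 8 libraries, 2 for each day and treatment, was sequenced on an Ion Proton. The deposited values are RPKM, which the authors made with CLC Genomics Workbench (its version, mapping settings, strand use and annotation are not given in the sources used here), with the build mm10 per the submitters' processing notes. No scaling between libraries was stated and none was applied. Each file held 51826 rows, of which 4 with repeated symbols were left out. The 12514 genes that reached 1 RPKM in 2 or more libraries went into limma 3.58.1 (R 4.3.3) as log2(RPKM + 1), with a mean-variance trend, in 1 fit of the 4 groups with 5 contrasts, two-sided, Benjamini-Hochberg adjusted over all tested genes, with a threshold of 0.05. Fold changes on this scale understate those of low genes. The 8 genes and all lists were chosen with earlier results of these data known. All 8 genes were described in each contrast, the list genes with the up to 4 largest rises and falls were named, and others were named to complete a role or a small count, after their values were seen. The number of mapped reads was found from the steps of low values, of which 92.0% to 94.7% came out as whole reads within 0.05. Replicates differed by more than sampling noise in each group (chi-square per degree of freedom 3.47 to 5.47). The fit was also run on simulated data, and nothing here rests on the outcome, which is not given. Counts of reads and tables were made with Python 3.11.15. Gene positions came from GENCODE M21 and promoters from RefSeq. Alternatives covered the pseudocount, filter, scaling, replicate block, libraries fitted, trend and each library left out, and 3 were chosen after seeing the data (limma-voom on recovered reads, a sum without Rn7s1, ratios without a pseudocount).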

Additional observations from a re-analysis of the deposited data

Results flagged for a closer look

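Limma's test of the day 14 effect minus the day 7 effect called 2 of the 33 tested genes of the phosphate and mineral lists. Over all tested genes this was 0.623%. Of the 8 phosphate genes it called 0. At an unadjusted p under 0.05 there were 2 of the 8, beside 2061 of the 12514 tested genes, and limma-voom called 1, beside 411 of 12512. Fam20c, a kinase of secreted matrix proteins, was read at 5.02 and 5.13 RPKM in control and 3.72 and 3.91 RPKM with LAMZ at day 7, and at 7.23 and 6.02 RPKM in control and 14.5 and 19.8 RPKM with LAMZ at day 14, a difference of 1.57 between the effects (limma adjusted p = 0.0369). It was called in 7 of 19 alternative settings (adjusted p from 0.00231 to 0.151), not at the same sum of RPKM without Rn7s1 (adjusted p = 0.0521), and not with any of the 8 libraries left out (adjusted p from 0.0752 to 0.151). Sgms2 gave a difference of -1.96 (limma adjusted p = 0.0476) and was called in 6 of 19 alternative settings (adjusted p from 0.000272 to 0.166). It was not called after median centring (adjusted p = 0.0541), quantile normalization (adjusted p = 0.0608) or at the same sum without Rn7s1 (adjusted p = 0.0713), nor without either day 7 LAMZ library or any day 14 library (adjusted p from 0.142 to 0.166). The same test gave -1.44 for C1qb (limma adjusted p = 0.0287) and -1.20 for C1qc (limma adjusted p = 0.0487), 2 macrophage markers called in 7 and 3 of 19 alternative settings (adjusted p from 0.0135 to 0.582 and from 0.028 to 0.666) and not with any of the 8 libraries left out. Both were listed at 0 in the 4 LAMZ libraries, so these values restate the change over time in control (1.44 and 1.20) and do not show that the effect of LAMZ differed between the days. In control C1qb was read at 30.7 and 37.7 RPKM at day 7 and at 91.2 and 97.4 RPKM at day 14, and C1qc at 18.4 and 22.4 RPKM and at 51.8 and 44.2 RPKM.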

How the results depend on the processing

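Of the log2 fold changes of the 8 genes under alternative settings, 681 kept their sign and their side of the threshold, 43 lost and 29 gained a call, and 34 turned sign, all of them uncalled; the cause was not tested. With libraries at the same sum of RPKM the values that turned were Enpp1 -0.10 and Slc20a2 -0.19 (LAMZ, day 7), Phospho1 0.22, Smpd3 0.05 and Slc20a2 0.20 (time, control), and Slc20a1 0.06 and Mgp 0.16 (time, LAMZ). Without Rn7s1 in that sum, a setting chosen after seeing the data, they were Enpp1 -0.06, Slc20a2 -0.10, Phospho1 0.08, Slc20a2 0.07 and Mgp 0.03. Median centring gave Slc20a1 0.09 and Slc20a2 0.07 (LAMZ, day 14) and Mgp 0.07 (time, LAMZ), and quantile normalization 0.07, 0.04 and 0.12 for the same, with Phospho1 0.06 and Slc20a2 0.01 (time, control) and Slc20a1 0.00 (time, LAMZ). With each library left out in turn, ranges that crossed 0 were, for LAMZ at day 7, Ank -0.44 to 0.12, Enpp1 -0.04 to 0.10 and Slc20a2 -0.02 to 0.17, and at day 14 Slc20a1 -0.50 to 0.30, Slc20a2 -0.27 to 0.03 and the Slc20a1 to Slc20a2 ratio -0.23 to 0.27. Over time in control they were Phospho1 -0.15 to 0.09, Smpd3 -0.61 to 0.22, Slc20a1 -0.69 to 0.12 and Slc20a2 -0.18 to 0.12, and for the difference between days Alpl -0.19 to 0.57 and Slc20a1 -0.22 to 0.59. Of the 8 genes, leaving out libraries gave 2 to 4 called (LAMZ, day 7), 3 to 5 (LAMZ, day 14), 0 to 1 (time, control), 1 to 4 (time, LAMZ) and 0 to 0 (difference between days). Of all tested genes it gave 527 to 1383, 1512 to 3087, 69 to 453, 488 to 1890 and 0 to 21, beside 1607, 2878, 608, 1797 and 78 with all libraries. Genes called with LAMZ at day 7 were 951 with no filter, 624 with the groups fitted alone, 3592 at the same sum and 2430 without Rn7s1 in it, and at day 14 they were 5796 and 4382 in the last pair. Over time in control they were 203 with no filter, 1135 at the same sum and 1110 by limma-voom, and 0 by limma with the groups fitted alone (2184 at an unadjusted p under 0.05). Of the 8, 1, 2 and 2 were called in this comparison by quantile normalization, the same sum and limma-voom. Over time with LAMZ they were 1091 with no filter and 2825 by limma-voom, and of the 8, 1 was called with no filter and without Rn7s1, and 2 after quantile normalization and with no trend. For the difference between days they were 34 and 166 with pseudocounts of 0.1 and 5, 0 with no filter (limma; 2931 at an unadjusted p under 0.05), 133 with a filter of 5 RPKM (where Enpp1 dropped out), 30 with no trend and 411 by limma-voom, which called 1 of the 8. The higher share of calls with LAMZ was 33.9% and 30.3%, beside 8.69% and 8.16% at the same sum, 13.3% and 11.9% without Rn7s1, 53.5% and 56.3% after centring and 45.7% and 47.9% after quantile normalization. Over time in control it was 50.7%, beside 85.6% and 66.8% in the first pair of scalings, over time with LAMZ 35.5%, beside 63.5%, 50.5% (centring) and 48.6% (quantile), and for the difference between days 50%, beside 62.7% after centring. With the replicate number as a block the difference between days had 17 genes and the other comparisons 1376, 2700, 432 and 1548. The numbers did not pair the libraries (correlation of deviations -0.0342 to 0.0776 between groups). The depth limits Enpp1, at 24 to 144 reads a library, the fewest of the 8 genes except in day 14 LAMZ replicate 2. There Slc20a2 had 123 reads and Slc20a1 had 136.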
